A study of Mus musculus with 6 samples.

Results

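The cytosolic heat shock proteins described here are 10 genes: the HSP90 pair Hsp90aa1 and Hsp90ab1, the HSP70 genes Hspa8, Hspa1a and Hspa1b, the HSP110 gene Hsph1, the J-domain genes Dnajb1 and Dnaja1, and the small heat shock protein genes Hspb1 and Cryab. They were found by gene name in the deposited expression table, which holds 54532 genes, and each name matched 1 row. All 10 passed the filter of a mean of at least 0.5 FPKM (fragments per kilobase of gene, scaled to library size) over the 6 hearts, as did 12944 genes in all. Bulk RNA was sequenced from hearts of 3 control mice carrying loxP-flanked Mrps5 alleles (Mrps5 fl/fl, Ctrl) and 3 conditional knockout mice that carried MCM in addition (Mrps5 fl/fl; MCM, cKO). MCM is the tamoxifen-inducible Cre recombinase MerCreMer driven in cardiomyocytes by the alpha myosin heavy chain promoter. Both groups received tamoxifen at 45 mg per kg per day for 5 days from 8 weeks of age, and hearts were taken 12 weeks after it. Because MCM was present only in the cKO mice, the presence of Cre and the loss of Mrps5, a protein of the mitochondrial ribosome, cannot be told apart. In bulk tissue, fewer cells of a type and less RNA per cell cannot be told apart either.

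Heat shock proteins are molecular chaperones that bind unfolded or partly folded proteins. In the cytosol HSP70 binds client proteins with the help of J-domain partners, which deliver clients and drive its ATP cycle, and of exchange factors such as HSP110, which reset it, while HSP90 completes the folding of kinases, receptors and other clients. Small heat shock proteins hold unfolding proteins in a soluble state without ATP, and alpha B-crystallin (Cryab) and HSP27 (the product of Hspb1, also called HSP25 in the mouse) are abundant in heart muscle. Most of these families contain a form made at all times (Hsp90ab1, Hspa8) and a form strongly induced by stress (Hsp90aa1, Hspa1a, Hspa1b), the latter through heat shock factor 1, which binds repeats of the unit GAA in alternating orientation.

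The promoters are shown first because heat shock factor 1 binds repeats of this kind. RefSeq promoter windows (GRCm38.p6, 250 bases before and 50 after an annotated start) were matched by symbol for 6 of the 10 members, and those of Hsp90aa1, Hsp90ab1, Hspa8 and Cryab were not analysed here. The constitutive Hsp90ab1 and Hspa8 are among those left out, so inducible and constitutive members cannot be contrasted by promoter. An inverted pair of units, GAANNTTC or TTCNNGAA (each reads the same on both strands), occurred in windows of 5 of the 6, namely Hspa1a, Hspa1b, Hsph1, Dnaja1 and Hspb1, and in neither window of Dnajb1. No mismatch in a unit was allowed, so imperfect repeats were not counted. Among all 27025 genes with such windows, 17.0% held a pair in at least 1 window, and 15.1% of all 32851 windows held one. Upstream stretches with the pairs in capitals, read 5′ to 3′ on the strand of the gene, were as follows.
Hspa1a, chr17:34972233-34972280, minus strand: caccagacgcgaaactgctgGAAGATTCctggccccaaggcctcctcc
Hspa1b, chr17:34959315-34959362, minus strand: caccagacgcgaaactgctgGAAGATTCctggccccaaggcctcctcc
Hsph1, chr5:149636352-149636379, minus strand: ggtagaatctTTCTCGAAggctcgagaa
Dnaja1, chr4:40722334-40722361, plus strand: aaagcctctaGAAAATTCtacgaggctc
Hspb1, chr5:135887782-135887849, plus strand: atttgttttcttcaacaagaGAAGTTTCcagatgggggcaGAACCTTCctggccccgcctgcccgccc

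The stretches of Hspa1a and Hspa1b were identical, and the 250 bases before the start of these copies matched at 247 positions. In both, the pair began 104 bases before the start. Hspb1 carried 2 pairs, beginning 117 and 97 bases before its start. The pair of Dnaja1 began 124 bases before the start in 1 of its 3 windows. The pair shown for Hsph1 began 33 bases before one annotated start and 54 before the other. Hsph1 was also the only member of the 6 with 3 exactly matching alternating units in a row, located 36 or 15 bases after these starts. That exact arrangement was found in 0.603% of all windows. Runs of 3 units with a mismatch were not searched for in any member. The stretches of Hsph1 and Dnaja1 meet the first exon of other transcripts of these genes in GENCODE. These matches describe letters in a window, and binding was not measured.

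Before the values, a few facts of the libraries are needed. Read totals recovered from the FPKM values ranged from 19464289 to 24875499 in Ctrl and from 15989322 to 23749804 in cKO. The library size that the authors' FPKM values imply was 0.913 to 0.980 times the read total in Ctrl and 1.06 times it in each cKO heart, so the same share of reads gives a lower FPKM in cKO than in Ctrl. On the median-of-ratios scale the FPKM values were already close to level between hearts. Those factors ran from 0.986 in cKO replicate 1 to 1.01 in Ctrl replicate 3. Mrps5 (ENSMUSG00000027374) stood at 5.20, 6.45 and 6.33 FPKM in the Ctrl hearts and at 1.12, 1.23 and 1.31 FPKM in the cKO hearts, 20.4% of the Ctrl mean. In cKO replicate 2, Xist was at 10.7 FPKM and 4 Y-linked genes were at 0, whereas Xist was at most 0.127 FPKM in the remaining hearts. This library also stood apart in its counts, with a mean chi-square per gene of 43.1 and 40.8 against the other cKO hearts and 13.2 to 16.7 for all other pairs within a group. The study describes male animals only, so member results are also given without this heart. Transcripts of the mitochondrial genome held between 39.6 and 42.1% of the summed FPKM of a Ctrl heart and between 33.3 and 38.0% of that of a cKO heart. Atrial marker genes, although the methods name ventricular tissue, summed to between 131 and 2086 FPKM in Ctrl and between 579 and 1677 FPKM in cKO, and none of the 6 passed the test as reported. The largest part of the sum in each cKO heart was Nppa, at 469, 1127 and 938 FPKM, against 1062, 144 and 103 FPKM in Ctrl. The paper reports Nppa, as a hypertrophy marker, to be raised in cKO hearts, so the cKO sums do not measure atrial tissue alone.

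All 10 members had higher mean FPKM in the cKO hearts, and 7 rose past the threshold (limma on log2(FPKM + 1), adjusted p under 0.05 over all genes tested): Hsp90aa1, Hspb1, Hspa1b, Hspa1a, Dnaja1, Hsph1 and Hspa8. No member fell. Among all 12944 genes tested, 16.3% were called higher and 17.0% lower. The median log2 fold change was 0.78 over the members and -0.02 over all genes tested. In 9 members every cKO heart lay above every Ctrl heart, an arrangement that 24.8% of all genes tested showed, and Dnajb1 was the exception. The 3 members not called were Hsp90ab1, Dnajb1 and Cryab. An exact permutation test of 3 against 3 hearts cannot give a two-sided p below 0.1, so tests rest on the fit across all genes.

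**Figure D1:**
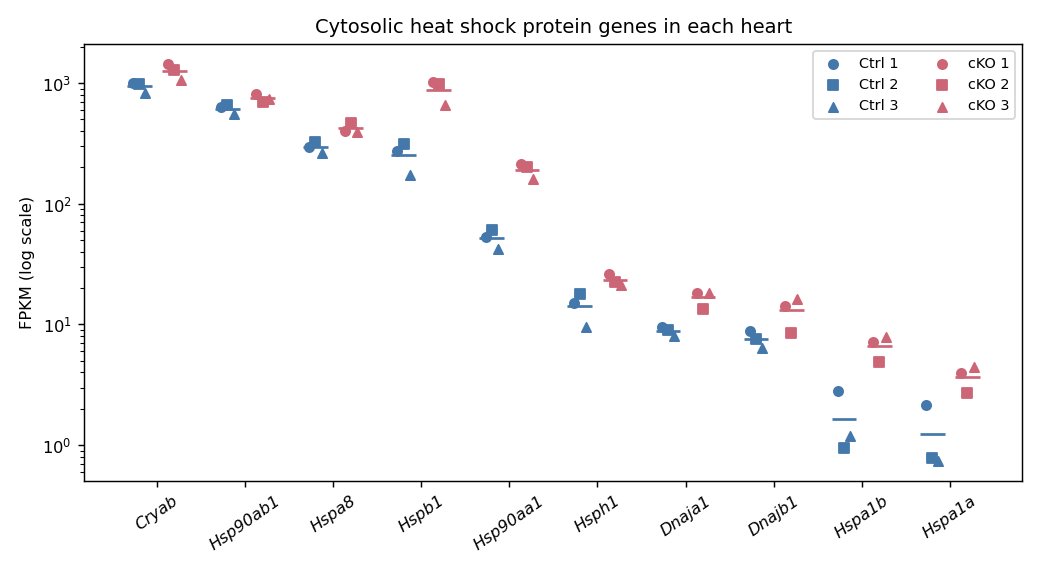
FPKM of the 10 members (log axis) in each of the 6 hearts, with a horizontal line at the mean of each group of 3. The cKO points lie above the Ctrl points for 9 members, and for Dnajb1 the square of cKO replicate 2 (8.53 FPKM) lies below the circle of Ctrl replicate 1 (8.82 FPKM).

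On the per-length FPKM scale the levels of the members were widely spread. In Ctrl hearts Cryab was highest (941 ± 104 FPKM, mean ± SD, n = 3), followed by Hsp90ab1 (616 ± 52.9) and then by Hspa8 (296 ± 31.4) and Hspb1 (253 ± 70.5), whose hearts overlapped. Hsp90aa1 stood apart below them at 51.9 ± 9.14 FPKM. Hsph1 overlapped with Dnaja1, and Dnaja1 with Dnajb1, all 3 of which lay between 6.43 and 17.9 FPKM, and the overlapping Hspa1b and Hspa1a were at 1.64 ± 1.00 and 1.22 ± 0.808 FPKM. In cKO hearts the order changed at 1 place: Hspb1 (884 ± 200 FPKM) came second and overlapped with Hsp90ab1 (749 ± 55.2 FPKM), well above Hspa8 (423 ± 40.0 FPKM). Hspa1b then lay above Hspa1a in every cKO heart without overlap.

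HSP90 is represented by a stress-inducible gene, which rose, and a constitutive gene, which was not called. Hsp90aa1 (ENSMUSG00000021270, chr12:110690605-110702728, minus strand, 11 exons in its longest transcript) encodes the inducible HSP90 alpha. Its FPKM was 53.0, 60.5 and 42.3 in Ctrl hearts 1 to 3 and 212, 200.2 and 161 in cKO hearts 1 to 3. The lowest cKO heart was thus far above the highest Ctrl heart, and the ratio of means was 3.68. The log2 fold change was 1.87 (SE 0.157, 95% interval 1.49 to 2.24, adjusted p = 0.000839), which ranked 60 among the 12944 genes, and without cKO replicate 2 it was 1.83 (adjusted p = 0.00291). Hsp90ab1 (ENSMUSG00000023944, chr17:45567775-45573271, minus strand, 11 exons) encodes the constitutive HSP90 beta. It measured 638, 655 and 556 FPKM in the Ctrl hearts and 809, 701 and 737 FPKM in the cKO hearts. The groups did not overlap, but the lowest cKO heart (701 FPKM) was close to the highest Ctrl heart (655 FPKM). Its log2 fold change of 0.28 (SE 0.101, 95% interval 0.04 to 0.52) missed the threshold with adjusted p = 0.0701, and with adjusted p = 0.0648 without cKO replicate 2.

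The share of Hsp90aa1 in the FPKM of this pair was 7.67, 8.46 and 7.07% in Ctrl and 20.8, 22.2 and 18.0% in cKO. HSP90 transcripts of both genes together came to 668 ± 61.8 FPKM in Ctrl and 940.1 ± 70.1 FPKM in cKO (mean ± SD, n = 3). HSP90 alpha therefore took a larger part of a larger total in each cKO heart, although HSP90 beta remained the more abundant transcript. Reads of Hsp90aa1 may be divided among copies: 36.2% of 150-base windows of its transcript occur in transcripts of other genes, chiefly the pseudogene Gm12346, itself at 1.39 FPKM in Ctrl and 4.87 FPKM in cKO. No window of Hsp90ab1 was shared.

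HSP70 is likewise split between an abundant constitutive gene and scarce inducible copies. Hspa8 (ENSMUSG00000015656, chr9:40800984-40810087, plus strand, 4 exons in its longest transcript) encodes HSC70, the constitutive cytosolic HSP70. Its FPKM was 296, 327 and 264 in Ctrl and 403, 469 and 397 in cKO. Every cKO heart was higher, by a ratio of means of 1.43, and the log2 fold change was 0.52 (SE 0.111, 95% interval 0.25 to 0.78, adjusted p = 0.0135). It was 0.44 without cKO replicate 2, the highest of the 3 cKO hearts for this gene, with adjusted p = 0.0290. Of its 150-base windows, 22.4% occur in other genes, chiefly Gm26825, which is listed at 0.

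Hspa1a (ENSMUSG00000091971, chr17:34969190-34972156, minus strand) and Hspa1b (ENSMUSG00000090877, chr17:34956436-34959238, minus strand) are neighbouring genes of 1 exon that encode the stress-inducible HSP70. Hspa1a measured 2.16, 0.778 and 0.738 FPKM in Ctrl (122, 48 and 53 reads) and 3.96, 2.71 and 4.42 FPKM in cKO (199, 188 and 330 reads). Hspa1b measured 2.79, 0.943 and 1.19 FPKM in the Ctrl hearts and 7.21, 4.84 and 7.89 FPKM in the cKO hearts. For both copies Ctrl replicate 1 was the highest control and cKO replicate 2 the lowest knockout, and the groups still did not overlap. The ratio of means was 3.02 for Hspa1a and 4.05 for Hspa1b, the latter the largest of any member. The log2 fold change on the log2(FPKM + 1) scale, which understates changes of genes this low, was 1.12 for Hspa1a (SE 0.256, 95% interval 0.51 to 1.73, adjusted p = 0.0166) and 1.57 for Hspa1b (SE 0.273, 95% interval 0.93 to 2.22, adjusted p = 0.00639). Without cKO replicate 2 they were 1.28 and 1.76 (adjusted p = 0.0178 and 0.00807). The call of Hspa1a was lost in 5 of the 14 alternative settings, with adjusted p between 0.0512 and 0.0584, and that of Hspa1b in none.

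These copies are close to identical, and 46.0% of the 150-base windows of Hspa1a and 40.5% of those of Hspa1b occur in another gene, mostly in each other, so the division of reads between them is uncertain. With the reads of both summed as 1 feature, the hearts held 271, 103 and 134 reads in Ctrl and 541, 505 and 886 in cKO, or 4.93, 1.72 and 1.92 FPKM against 11.1, 7.50 and 12.2 FPKM. The lowest cKO heart remained above the highest Ctrl heart. The summed log2 fold change was 1.62 (SE 0.316, 95% interval 0.87 to 2.37, adjusted p = 0.00960 over 12943 features). Within the pair, Hspa1b took 56.4, 54.8 and 61.8% of the FPKM in Ctrl and 64.5, 64.1 and 64.1% in cKO. Exons of Hspa1a overlap the antisense gene Gm20481, listed at 0 FPKM in both groups, over 564 bases, 19.0% of their length. Reads from that stretch cannot be assigned, since the use of strand in counting is not stated. The inducible copies stayed a small part of cytosolic HSP70: their share of Hspa1a, Hspa1b and Hspa8 together was 1.64, 0.524 and 0.726% in Ctrl and 2.70, 1.59 and 3.01% in cKO. Here the groups overlapped, since cKO replicate 2 lay below Ctrl replicate 1.

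Hsph1 (ENSMUSG00000029657, chr5:149614287-149636376, minus strand, 12 exons) encodes HSP105, an HSP110 protein that acts as a nucleotide exchange factor for HSP70. It measured 14.9, 17.9 and 9.44 FPKM in the Ctrl hearts and 26.3, 22.5 and 21.03 FPKM in the cKO hearts. The cKO hearts were all higher, and Ctrl replicate 3 was the lowest by a wide margin. The fitted log2 fold change was 0.72 (SE 0.214, 95% interval 0.22 to 1.23, adjusted p = 0.0397). This call was close to the threshold: without Ctrl replicate 3 the log2 fold change was 0.48 (adjusted p = 0.0504), without cKO replicate 2 it was 0.74 (adjusted p = 0.0717), and it failed in 6 of the 14 alternative settings.

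Of the J-domain partners of HSP70, Dnaja1 rose and Dnajb1 was not called. Dnaja1 (ENSMUSG00000028410, chr4:40722150-40737149, plus strand, 9 exons) encodes a type A HSP40. Its FPKM was 9.54, 8.92 and 8.06 in Ctrl and 18.4, 13.5 and 18.3 in cKO, with all cKO hearts clear of the controls. Its log2 fold change was 0.84 (SE 0.130, 95% interval 0.53 to 1.15, adjusted p = 0.00433), and 0.98 without cKO replicate 2 (adjusted p = 0.00235). Its exons overlap those of the antisense gene Smu1 over 608 bases, 7.05% of its exonic length, and Smu1 was at 11.0 FPKM in Ctrl and 11.7 FPKM in cKO. Of its 150-base windows, 20.03% occur in other genes, chiefly Gm15542, which was at 2.99 FPKM in Ctrl and 5.21 FPKM in cKO.

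Dnajb1 (ENSMUSG00000005483, chr8:83608193-83612653, plus strand, 3 exons) encodes HSP40, the classical heat-inducible partner of HSP70. Its FPKM was 8.82, 7.50 and 6.43 in Ctrl and 14.3, 8.53 and 16.4 in cKO. In 2 cKO hearts it was well above every control, while cKO replicate 2 fell inside the control range. The log2 fold change of 0.68 (SE 0.227, 95% interval 0.14 to 1.22) gave adjusted p = 0.0586 and was not called. Without cKO replicate 2, the heart with Xist, it was 0.94 with adjusted p = 0.00629, so leaving out that heart changed the call of Dnajb1.

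The small heat shock proteins included the most abundant member, Cryab, and Hspb1, with the second-largest log2 fold change as fitted. By ratio of means, Hspb1 came after Hspa1b (4.05) and Hsp90aa1 (3.68). Hspb1 (ENSMUSG00000004951, chr5:135887919-135889563, plus strand, 2 exons in its longest transcript) measured 274, 310.3 and 174 FPKM in the Ctrl hearts and 1020.4, 979 and 654 FPKM in the cKO hearts. Replicate 3 was the lowest heart in both groups, and the lowest cKO heart was still above the highest Ctrl heart. The ratio of means was 3.50 and the log2 fold change 1.82 (SE 0.255, 95% interval 1.21 to 2.42, adjusted p = 0.00324), rank 66 of 12944. It was 1.73 without cKO replicate 2 (adjusted p = 0.00937). The pseudogene Hsp25-ps1 shares 36.6% of the 150-base windows of Hspb1 and was at 0.540 FPKM in Ctrl and 1.54 FPKM in cKO.

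Cryab (ENSMUSG00000032060, chr9:50751325-50756636, plus strand, 4 exons) encodes alpha B-crystallin, which protects desmin and other filament proteins of muscle. Its FPKM was 1011, 992 and 821 in Ctrl and 1446, 1296 and 1061 in cKO. The groups did not overlap, but Ctrl replicate 1 and cKO replicate 3 were near each other. Its log2 fold change was 0.42 (SE 0.143, 95% interval 0.09 to 0.76) and was not called (adjusted p = 0.0593, and 0.117 without cKO replicate 2). With the replicate block it passed (adjusted p = 0.0285). Its exons overlap over 252 bases, 17.0% of their length, with those of the antisense neighbour Hspb2, another small heat shock protein gene of muscle. Hspb2 measured 57.4, 56.6 and 47.5 FPKM in the Ctrl hearts and 88.7, 75.1 and 74.9 FPKM in the cKO hearts (log2 fold change 0.56, SE 0.108, adjusted p = 0.00952). The use of strand in counting is not stated, so reads from the overlap cannot be assigned between these genes.

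Hspb1 made up 21.3, 23.8 and 17.5% of the FPKM of Hspb1 and Cryab in Ctrl and 41.4, 43.0 and 38.1% in cKO, with no overlap. Their total was 1194 ± 172 FPKM in Ctrl and 2152 ± 390 FPKM in cKO (mean ± SD, n = 3). All 10 members together summed to 2310, 2380 and 1884 FPKM in the Ctrl hearts and to 3961, 3697 and 3079 FPKM in the cKO hearts. As a share of the FPKM outside the mitochondrial genome, this was 0.852, 0.818 and 0.686% in Ctrl and 1.53, 1.39 and 1.18% in cKO.

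**Figure D2:**
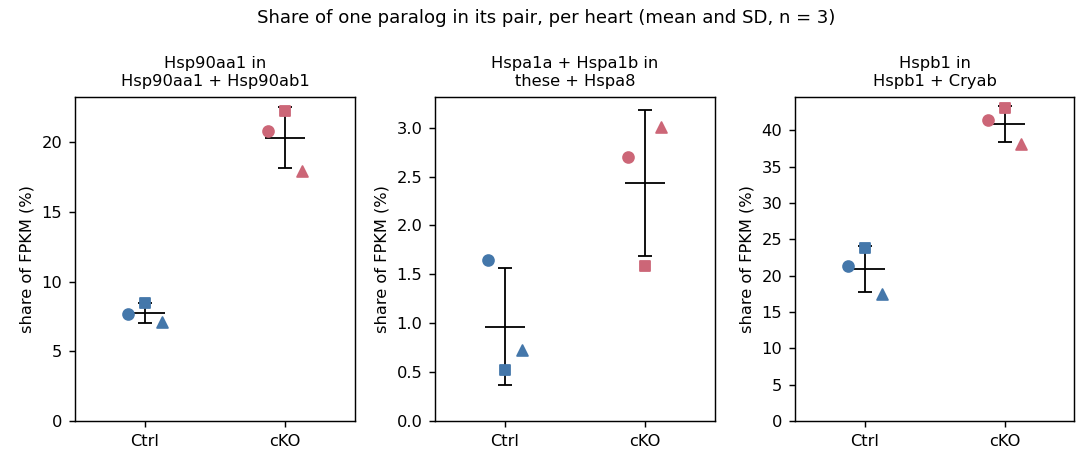
Share (%) of the FPKM of related genes taken by Hsp90aa1, by Hspa1a and Hspa1b, and by Hspb1 in each heart, with lines at the group mean and bars of 1 SD (n = 3). The Hsp90aa1 and Hspb1 shares separate the groups (at most 8.46% against at least 18.0%, and at most 23.8% against at least 38.1%), while the Hspa1 share overlaps at 1.64% and 1.59%.

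The size of the change varied within families. The 95% intervals of Hsp90aa1 (1.49 to 2.24) and Hsp90ab1 (0.04 to 0.52), and those of Hspb1 (1.21 to 2.42) and Cryab (0.09 to 0.76), were apart. The intervals of Hspa1b and Hspa8 were apart as well, whereas those of Hspa1a (0.51 to 1.73) and Hspa8 (0.25 to 0.78) overlapped. Differences between members were not tested.

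**Figure D3:**
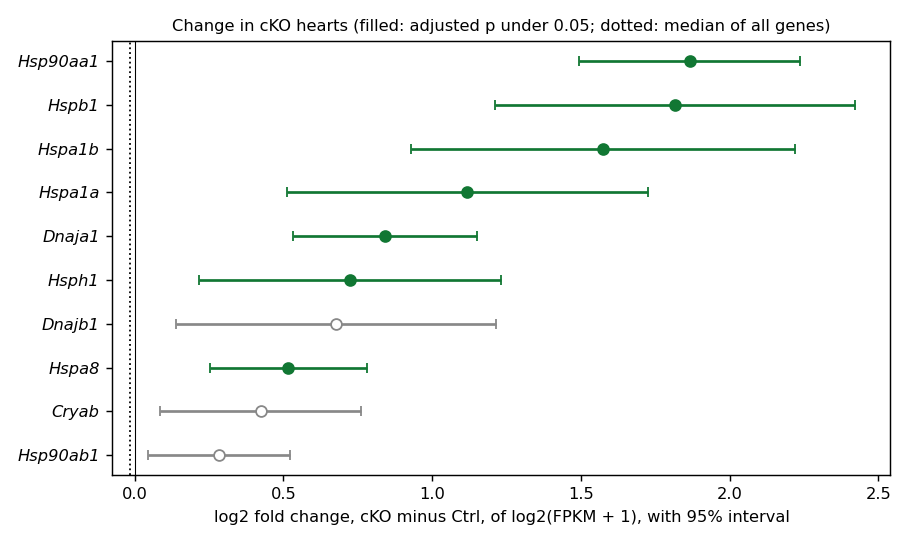
Log2 fold change (cKO minus Ctrl, of log2(FPKM + 1)) of each member with its 95% interval, filled where the adjusted p was under 0.05, and a dotted line at the median of all genes tested (-0.02). Hsp90aa1 (1.87) and Hspb1 (1.82) lead, and the 3 open points are Dnajb1 (0.68), Cryab (0.42) and Hsp90ab1 (0.28).

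Single hearts recurred at the edges of the groups. Ctrl replicate 3 was the lowest control for 9 of the 10 members, and cKO replicate 1 was the highest knockout for 6. In the cKO group, replicate 2 was lowest for the 5 members Hsp90ab1, Hspa1a, Hspa1b, Dnajb1 and Dnaja1, and replicate 3 for the 5 members Hsp90aa1, Hspa8, Hsph1, Hspb1 and Cryab. The members therefore did not rank the knockout hearts in 1 common order. The similarity of profiles over the 6 hearts was measured as the root mean square difference of centred log2(FPKM + 1) values. It was read for the 3 members with the largest changes. Genes with a like difference between the groups lie near each other by this measure, whatever their function. Rrp12 and Phlda3, named below, had log2 fold changes of 1.74 and 1.94. By it, the nearest of all tested genes to Hspb1 was Hsp90aa1 (0.142), followed by Rrp12, a ribosome biogenesis factor (0.183), and AC105304.1 (0.203). The nearest to Hsp90aa1 were Rrp12 (0.137), Phlda3 (0.141) and Hspb1. The nearest to Hspa1b were Aldh1a2 (0.230), Thbs1 (0.232) and Hspa1a (0.237), whose reads cannot be divided from those of Hspa1b with certainty. For each of the other 7 members, between 6 (Dnajb1) and 1863 (Hsp90ab1) tested genes were nearer than any member was.

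The counts of further chaperone genes are to be read against 16.3% of all tested genes called higher and 17.0% called lower, and no list was tested against the rest. Of 6 heat shock factors and their binding proteins, 4 passed the filter and none passed the test as reported. Hsf1, the main heat shock activator, measured 5.35, 5.09 and 5.51 FPKM in the Ctrl hearts and 5.73, 6.47 and 5.99 FPKM in the cKO hearts, with no overlap and a log2 fold change of 0.16 (adjusted p = 0.133). Hsf2 gave 0.03 (adjusted p = 0.842). These are RNA levels, and heat shock factors are controlled largely at the protein level.

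Of 7 further cytosolic HSP70 and HSP110 genes, 2 rose and 2 fell, with a median log2 fold change of 0.11. The HSP110 genes Hspa4 (33.8 ± 1.20 to 52.7 ± 4.52 FPKM, log2 fold change 0.63, adjusted p = 0.00289) and Hspa4l (log2 fold change 0.46, adjusted p = 0.00745) rose, as Hsph1 of the same subfamily did. Hspa12b, an endothelial gene (log2 fold change -0.69, adjusted p = 0.00124), and Hspa2 (-0.34, adjusted p = 0.0203, called in 9 of 14 alternatives) fell. Of 16 other J-domain genes, 4 rose and 1 fell, and the median was -0.00. The leading ones were Dnaja4 (27.9 ± 3.35 to 50.9 ± 12.0 FPKM, 0.83, adjusted p = 0.0117), Dnajc2, a partner of HSP70 at the ribosome (0.70, adjusted p = 0.00497), Dnajc5 (0.34, adjusted p = 0.0206) and Dnajb2 (0.29, adjusted p = 0.0335), the latter pair called in 10 and 7 of the 14 alternatives, over which 2 to 7 genes of the list rose. Of 8 other small heat shock protein genes, 6 were tested, Hspb2 rose and the other 5 were not called.

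Among 24 HSP90 co-chaperones, 7 rose and 5 fell, with a median of 0.03. Stip1, the adaptor HOP that links HSP70 to HSP90, rose to 109 ± 16.3 FPKM from 54.2 ± 6.26 FPKM in Ctrl, a log2 fold change of 0.99 (adjusted p = 0.00289). The cyclophilin Ppid rose by 0.68 (adjusted p = 0.00302) and Ahsa1, the activator of the HSP90 ATPase, by 0.54 (adjusted p = 0.00854) on the log2 scale. The steroid receptor co-chaperone Fkbp4 was lower in cKO, at 90.7 ± 8.94 FPKM against 139 ± 12.4 FPKM in Ctrl, a log2 fold change of -0.61 (adjusted p = 0.00602). With scaling that leaves out mitochondrially encoded transcripts, the list gave 10 higher and 3 lower. Calls over all genes tested moved the same way in that setting, from 2110 to 2647 higher and from 2205 to 1623 lower. Fkbp4 was called lower in all 14 alternatives.

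Of 9 HSP70 exchange and BAG factors, 4 rose and none fell (median 0.15). They were Bag2 (13.2 ± 0.976 to 23.7 ± 3.90 FPKM, log2 fold change 0.79, adjusted p = 0.00454), Hspbp1 (0.46, adjusted p = 0.00732), the HSP70-interacting protein St13 (0.44, adjusted p = 0.0110) and Sil1 of the endoplasmic reticulum (0.37, adjusted p = 0.0202, called in 12 of 14 alternatives). Of 8 heat shock proteins of organelles, 4 rose and none fell (median 0.26). The mitochondrial chaperones Hspe1 (103 ± 14.8 to 201 ± 25.4 FPKM, 0.96, adjusted p = 0.00336), Hspd1 (156 ± 12.7 to 304 ± 27.4 FPKM, 0.95, adjusted p = 0.00148) and Hspa9 (0.92, adjusted p = 0.000802) rose, together with Hyou1 of the endoplasmic reticulum (0.36, adjusted p = 0.0316, called in 9 of 14 alternatives). Each of the lists had a lower median than the 10 members (0.78), but members and lists were chosen with earlier results of these data known. A list median also hides single genes: Hspe1, Hspd1 and Hspa9 each exceeded the median of the members, while Trap1, also mitochondrial, was at 0.03.

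**Figure D4:**
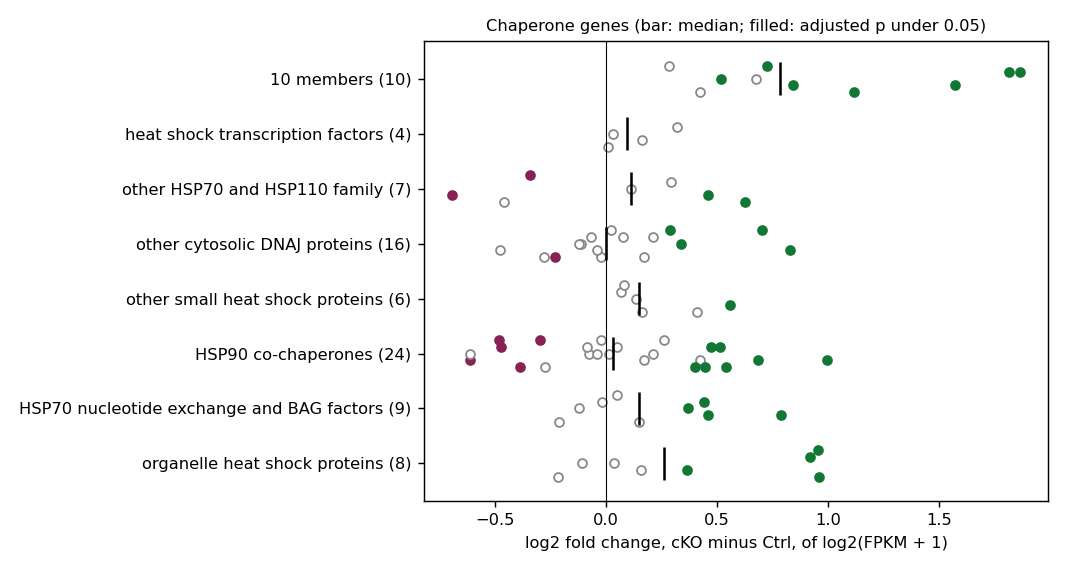
Log2 fold change (cKO minus Ctrl, of log2(FPKM + 1)) of the members and of the tested genes of each chaperone list (number tested in brackets), filled where the adjusted p was under 0.05, with a bar at the list median. The members lie between 0.28 and 1.87 with a median of 0.78, and the other lists have medians between -0.00 and 0.26.

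Genes that can follow handling, body temperature and time of day are given beside the members, with the same shares of all tested genes called (16.3% higher, 17.0% lower). Of 13 immediate-early genes tested, Atf3, Egr1, Fos and Egr2 rose and Dusp1 fell, and the sum of the list was 127 to 165 FPKM in Ctrl and 123 to 196 FPKM in cKO. Atf3, also a target of the integrated stress response, had a log2 fold change of 1.36 (adjusted p = 0.0146), Egr1 1.10 (adjusted p = 0.0492) and Fos 0.94 (adjusted p = 0.0241). Egr1, whose groups overlapped, was called in 6 of the 14 alternatives (adjusted p = 0.116 without cKO replicate 2), Dusp1 in 8 and Fos in 9. Egr2 was low, at a mean of 0.230 FPKM in Ctrl and 0.957 FPKM in cKO. It was tested in 12 of the alternatives and called in 10. The number of the list called higher was between 1 and 6 over the 14 alternatives, with 1 without Ctrl replicate 2 and 1 without Ctrl replicate 3. The cold-inducible Cirbp, known to move opposite to heat shock genes with body temperature, measured 18.7, 14.2 and 13.1 FPKM in the Ctrl hearts and 5.08, 5.95 and 6.90 FPKM in the cKO hearts (log2 fold change -1.22, adjusted p = 0.00235). Rbm3, of the same class, gave -0.01 (adjusted p = 0.967). Of 10 clock genes tested, 5 fell and 1 rose, led by Dbp (-1.89, adjusted p = 0.00732), Nr1d2 (-1.24, adjusted p = 0.0171) and Tef (-1.08, adjusted p = 0.00668). Their part in the member results was not tested.

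Of 10 cardiomyocyte markers, 6 fell and none rose, and their sum was 17522 to 22273 FPKM in Ctrl and 10622 to 18087 FPKM in cKO. Pln had a log2 fold change of -1.43 (adjusted p = 0.00148), Ryr2 -0.78 (adjusted p = 0.00519) and Tnni3 -0.64 (adjusted p = 0.00599). Of 8 endothelial markers, 6 fell, and the sum was 333 to 350 FPKM in Ctrl and 190 to 210 FPKM in cKO. Of 8 fibroblast markers, 3 rose, led by Col3a1 (1.57, adjusted p = 0.00328), and Dcn fell, with sums of 162 to 189 FPKM and 163 to 195 FPKM. Of 8 macrophage markers, 1 fell (190 to 276 FPKM and 160 to 235 FPKM). Of 5 tested smooth muscle and pericyte markers, 1 rose and 2 fell (167 to 184 FPKM and 104 to 133 FPKM). None of 5 blood cell markers was called (880 to 2056 FPKM and 585 to 1588 FPKM). None of these lists was at 0 in any heart, the members are made in more than 1 of these cell types, and the part of cell makeup in their values was not tested.

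The member results were recomputed in 14 alternative settings. Hsp90aa1, Hspb1, Hspa1b, Dnaja1 and Hspa8 were called higher in each of them. The log2 fold change lay between 1.73 and 2.04 for Hsp90aa1, between 1.57 and 2.02 for Hspb1, between 1.38 and 2.33 for Hspa1b, between 0.77 and 1.06 for Dnaja1 and between 0.44 and 0.67 for Hspa8. No member changed sign. Hsp90ab1 passed in 2 alternatives, Dnajb1 in 3 and Cryab in 4, and all 3 passed when the hearts were scaled without mitochondrially encoded transcripts, with log2 fold changes of 0.37, 0.76 and 0.51.

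**Figure D5:**
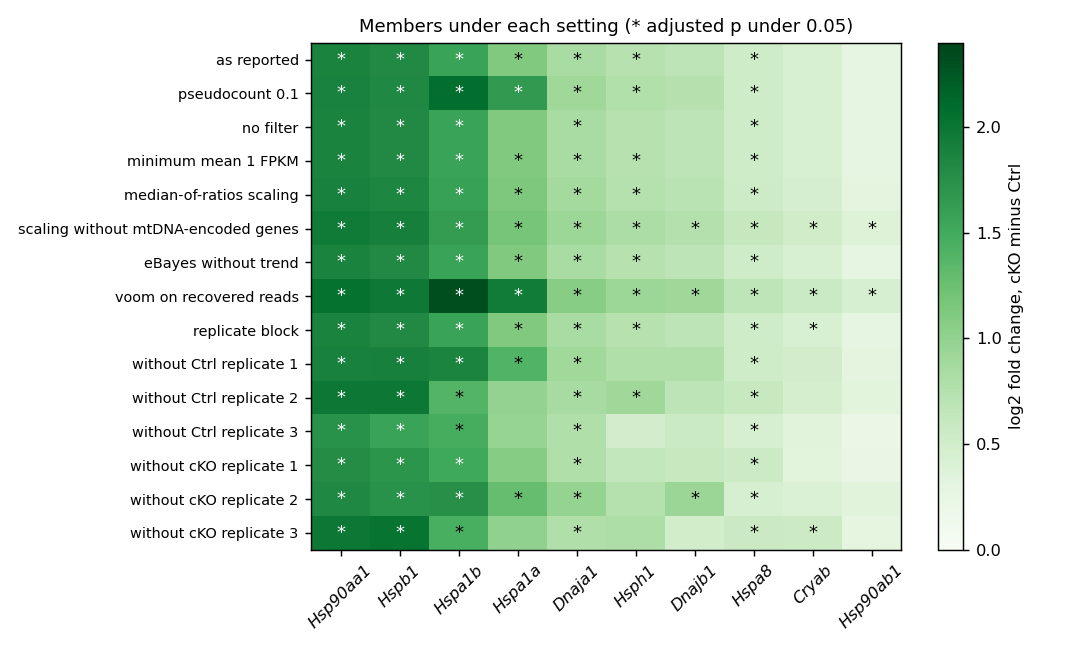
Log2 fold change (cKO minus Ctrl; colour scale) of the 10 members as reported and in 14 alternative settings, with a star where the adjusted p was under 0.05. Stars fill the columns of Hsp90aa1, Hspb1, Hspa1b, Dnaja1 and Hspa8, and are missing in some settings for the other 5.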

How the data were processed

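RNA of 6 mouse hearts was prepared by the authors as poly-A selected libraries, aligned and counted per gene. The deposited FPKM values were computed by the authors from reads per gene and gene length, and that length, another deposited column, was taken as is. The submitters' processing notes name HISAT2 2.0.5, featureCounts 1.5.0-p3, DESeq2 1.16.1 and mm9, but all 10 members have the coordinates of GENCODE release M21 (GRCm38), used here. Whether counting used strand or kept reads with several alignments is not stated. FPKM multiplied by gene length and by 1 implied library size per heart gave whole reads within 0.01 in 100% of values.

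Groups and replicate numbers came from the sample titles. Genes averaging 0.5 FPKM or more were fitted as log2(FPKM + 1) with limma 3.58.1 (R 4.3.3, trended empirical Bayes) and compared two-sided, with Benjamini-Hochberg adjustment over 12944 genes and a threshold of 0.05. The fit was tested on 5 simulated tables, in which far fewer genes changed than were called here. No simulated heart was made to stand apart from its group as cKO replicate 2 did, so the rates need not hold for the real hearts. It recovered 61.6% of the 2-fold and 97.6% of the 4-fold changes, and 5.89% of its calls were false. Protein sequences were not analysed here. Alternatives were a pseudocount of 0.1, no filter, a minimum of 1 FPKM, scaling by median of ratios or without mitochondrially encoded genes, no variance trend, voom on recovered reads, a replicate block, and leaving out each heart. Scaling by median of ratios changed the values little, because its factors were close to 1. Members and lists were chosen with earlier results of these data known, so no list was tested as a set. All members are described. Other genes named were Mrps5, Hsf1, Hsf2, Hspb2, up to 4 genes per chaperone list and 3 per marker list with the largest change past the threshold, and the 3 genes nearest to each of the 3 members with the largest change. Egr2, Dusp1, Dcn, Rbm3 and Nppa were named after their values were seen, to complete counts and sums, as were genes that overlap or share sequence with a member. Replicates were different hearts of each group, and no pair of hearts agreed within counting noise.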

Additional observations from a re-analysis of the deposited data

How the results depend on the processing

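Over the 10 members and 14 alternatives, 120 of 140 comparisons kept their direction and side of the threshold, 11 lost the call (5 for Hspa1a, 6 for Hsph1), 9 gained it (2 for Hsp90ab1, 3 for Dnajb1, 4 for Cryab) and 0 changed sign. The number of members called higher was 7 as reported, 10 with voom and with scaling without mitochondrially encoded genes, 8 with the replicate block, 5 without a filter, and 5 to 7 when 1 heart was left out. No member was called lower in any of them.

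Counts over all genes moved more. Against 2110 higher and 2205 lower (48.9% of calls higher), voom on recovered reads gave 3387 and 1449 (70.0%), with the median of all genes shifted from -0.02 to 0.13, and scaling without mitochondrially encoded genes gave 2647 and 1623 (62.0%). Leaving out 1 heart gave 1396 to 1977 higher and 1423 to 2011 lower. The lowest counts were those without Ctrl replicate 3 (1396 higher) and without Ctrl replicate 2 (1423 lower), where fewer samples were fitted. The summed Hspa1a and Hspa1b feature was called in every alternative, from 1.41 to 2.18. Voom takes plain read totals in place of the library sizes that the FPKM values imply. Before subtracting that shift, voom gave log2 fold changes of 0.43 for Hsp90ab1 (adjusted p = 0.00663), 0.90 for Dnajb1 (adjusted p = 0.0213) and 0.58 for Cryab (adjusted p = 0.00966), and called Hsf1 (0.34, adjusted p = 0.0226). Hsf2, at 0.03 as reported, ranged from -0.062 (without cKO replicate 2, a reversed sign) to 0.098 when 1 heart was left out and was not called in any of these fits.

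Over all genes tested, hearts of the same replicate number did not deviate together (correlations of -0.06, 0.17 and -0.01). With deviations taken from means of 3 hearts this cannot exclude pairing, and the paper calls the controls littermates. Whether the numbers pair hearts is not stated. The replicate block gave 1874 genes higher and 1982 lower and added the call of Cryab (0.42, adjusted p = 0.0285), while no other member call changed. With 3 hearts per group, an adjusted p that misses the threshold does not show that a member was unchanged. Counting precision is lowest for Hspa1a, with 48 reads in Ctrl replicate 2. Of the lists, the alternatives gave 7 to 11 higher and 2 to 5 lower for HSP90 co-chaperones, 4 to 9 lower for cardiomyocyte markers, 5 to 7 lower for endothelial markers, 3 to 7 lower for clock genes, and up to 1 higher for atrial markers and 2 lower each for macrophage and blood cell markers.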
